A study of Mus musculus with 18 samples.

Results

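The genes described here carry fatty acids into heart muscle cells and burn them: 38 genes of fatty acid uptake, activation, transport into mitochondria, β-oxidation and storage as triglyceride, chosen by name. Of these, 36 had at least 1 promoter peak in the deposited table, and for each gene the promoter peak with the highest summed RNA polymerase II (RNA Pol II) signal over 6 libraries was taken. *Etfb* and *Etfdh*, which pass electrons from β-oxidation to the respiratory chain, had no row of their own symbol. The 36 peaks stand among 13980 genes with a promoter peak, 38260 promoter peaks and 101256 regions in all. A promoter peak is a region that the authors annotated to a nearby gene start, with a window of 5000 nt.

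Chromatin came from mouse heart ventricles, with 2 hearts per preparation, and was precipitated with antibodies against RNA Pol II, the transcribing enzyme, or CTCF, a DNA-binding protein that served as positive control. There were 2 libraries per genotype for each of both targets and 1 IgG library per genotype as background. The genotypes were WT, *Trdn-as* KO and *Mettl3* KO. In *Trdn-as* KO mice a polyadenylation signal in the first exon stops transcription of a long non-coding RNA antisense to triadin. In *Mettl3* KO mice (Mettl3lox/lox with the αMHC-MerCreMer transgene) tamoxifen, given in medium-chain triglycerides at 10 to 16 weeks of age, removes an RNA methyltransferase from cardiomyocytes alone, so that all other cells of the ventricle keep the gene. The methods describe Mettl3lox/lox mice given tamoxifen as controls of that line, whereas the labels call the control libraries WT and do not say whether those mice received tamoxifen in its triglyceride carrier, so the part of this treatment in the results was not tested. All hearts were from adults, and the ages of the WT and *Trdn-as* KO mice are not given in the sources used here. The libraries carry replicate numbers, but nothing says that a number stands for separate hearts, and the p-values therefore measure the spread between these libraries.

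The adult heart draws most of its energy from fatty acids. Lipoprotein lipase frees them from circulating triglyceride, CD36 and FATP1 help them across the membrane, and FABP3 binds them in the cytosol. Acyl-CoA synthetases activate them, the carnitine shuttle of CPT1, the carnitine-acylcarnitine carrier and CPT2 brings them into mitochondria, and the enzymes of β-oxidation then shorten the acyl chain in repeated cycles. Malonyl-CoA brakes the shuttle at CPT1. Many of these genes are known targets of the nuclear receptors PPARα and ERRα, which bind AGGTCA half-sites.

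The promoter sequences below are those of the genes on which the RNA Pol II results turn, the 250 bases before the RefSeq start in GRCm38.p6, in the direction of transcription, with every AGGTCA half-site on either strand in capitals. The peaks themselves are in GRCm39, so these coordinates are not those of the peaks. *Acot1* is printed beside *Acot2* because the thioesterase genes are close paralogs.
*Acadm* (chr3:153944644-153944893, minus strand): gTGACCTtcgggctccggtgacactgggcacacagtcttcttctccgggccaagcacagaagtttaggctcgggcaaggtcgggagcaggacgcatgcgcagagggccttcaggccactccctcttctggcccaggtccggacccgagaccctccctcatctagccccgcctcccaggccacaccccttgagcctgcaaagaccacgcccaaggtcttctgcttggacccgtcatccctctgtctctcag
*Fabp3* (chr4:130308488-130308737, plus strand): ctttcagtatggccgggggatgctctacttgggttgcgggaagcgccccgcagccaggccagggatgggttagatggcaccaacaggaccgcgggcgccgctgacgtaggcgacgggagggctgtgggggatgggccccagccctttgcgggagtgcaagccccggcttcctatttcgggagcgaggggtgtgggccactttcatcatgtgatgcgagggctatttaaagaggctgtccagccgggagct
*Slc25a20* (chr9:108661886-108662135, plus strand): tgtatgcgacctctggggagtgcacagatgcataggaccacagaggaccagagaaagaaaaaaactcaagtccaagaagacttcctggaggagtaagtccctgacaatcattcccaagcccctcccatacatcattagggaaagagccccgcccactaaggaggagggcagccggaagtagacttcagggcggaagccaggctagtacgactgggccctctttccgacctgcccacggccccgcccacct
*Acadvl* (chr11:70015429-70015678, minus strand): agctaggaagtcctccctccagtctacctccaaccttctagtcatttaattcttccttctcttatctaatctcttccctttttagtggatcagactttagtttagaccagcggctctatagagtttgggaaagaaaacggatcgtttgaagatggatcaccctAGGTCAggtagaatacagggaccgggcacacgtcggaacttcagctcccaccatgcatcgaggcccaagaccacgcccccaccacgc
*Acot2* (chr12:83987611-83987860, plus strand): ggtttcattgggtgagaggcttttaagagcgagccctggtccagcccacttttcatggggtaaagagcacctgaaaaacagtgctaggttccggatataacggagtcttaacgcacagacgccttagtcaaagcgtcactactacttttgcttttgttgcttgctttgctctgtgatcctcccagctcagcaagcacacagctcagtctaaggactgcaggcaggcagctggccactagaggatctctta
*Acot1* (chr12:84009252-84009501, plus strand): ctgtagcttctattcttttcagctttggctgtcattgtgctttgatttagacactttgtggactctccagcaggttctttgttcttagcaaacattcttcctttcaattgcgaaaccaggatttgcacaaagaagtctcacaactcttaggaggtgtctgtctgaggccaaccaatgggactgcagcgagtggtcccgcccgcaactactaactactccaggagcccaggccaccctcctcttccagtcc
The RefSeq table of promoters held 31 of the 38 genes, 4 of them with more than 1 start. *Acaa2*, *Angptl4*, *Cpt1b*, *Decr1*, *Dgat1*, *Dgat2* and *Lpl* were not in it. A direct repeat of AGGTCA with 1 base between (the PPAR-RXR element) was found in 0 of the 36 windows of 300 bases (250 before and 50 after each start) and in 0.0396% of 32851 windows of all genes. TCAAGGTCA (the ERR element) was in 0 of 36 and in 0.423% of all. The single half-site AGGTCA, searched in addition after the longer motifs and contained in both of them, was in 9 of 36 windows (25%), against 16.3% of all. It lay in the windows of *Acacb*, *Acadm*, *Acadvl*, *Cd36*, *Cpt1a*, *Echs1*, *Plin5* and *Ucp3*. CACGTG was in 2 windows (*Lipe* and *Slc27a1*) against 7.15% of all, and TATAAA in 1 (*Acacb*) against 13.6%. The CTCF core motif was in 0 of 36 and in 0.685% of all. Both strands were searched in each case. The windows were rich in G and C, with a median of 60.5% against 52.7% for all windows and a range from 39.7% at *Acaca* to 74% at *Acsl1*. In the 250 printed bases, the longest run that *Acot1* and *Acot2* share was 9 bases.

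*Hadha* and *Hadhb* encode the α and β subunits of the mitochondrial trifunctional protein, which catalyses the later steps of each cycle for long chains. Their RefSeq starts in GRCm38.p6 face away from each other with 272 bases between them. The 228 bases that both promoter windows hold are shown because 1 peak covers both starts, in the direction of *Hadhb*.
*Hadha-Hadhb* (chr5:30155003-30155230, plus strand): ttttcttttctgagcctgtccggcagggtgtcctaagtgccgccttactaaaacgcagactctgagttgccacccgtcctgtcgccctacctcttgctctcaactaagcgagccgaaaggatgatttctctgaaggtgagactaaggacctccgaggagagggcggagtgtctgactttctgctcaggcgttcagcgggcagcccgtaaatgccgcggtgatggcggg
The peak under the symbol *Hadha* (chromosome 5 from 30356913 to 30361719 in GRCm39) contained both starts, and its RNA Pol II signal cannot be divided between the 2 genes. The peak under the symbol *Hadhb* lay inside that gene, 2935 nt from its start to the peak's centre.

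In WT hearts, RNA Pol II at these promoters was mostly above that of the typical coding gene. Levels are compared between genes as the mean value of both WT libraries per kb of peak. They ran from 1.20 at *Acaca* to 295 at *Cpt2*, with a median of 172. Among the promoter peaks of 13580 protein-coding genes, 29 of the 36 lay above the median and 3 in the top 10%, and their median percentile was 66.7. *Cpt2*, which rebuilds acyl-CoA inside the mitochondrion, was the highest, with values of 343 and 313. *Echs1*, the hydratase of short chains, followed at 260 per kb (values of 404 and 418), and *Acadl*, a dehydrogenase of long chains, at 259 per kb (values of 383 and 373). The last 2 differed by less than the spread between their libraries. The lowest were *Hadhb* at 49.4 per kb (41 and 47), read inside the gene, *Eci2*, an enoyl-CoA isomerase, at 24.2 per kb (15 and 23), and *Acaca*, the acetyl-CoA carboxylase of the cytosol that is known from lipogenic tissue, with values of 0 and 1. The *Acaca* peak did not contain the gene's start, which lay 4808 nt from the peak's centre, so its values do not read that start. *Acacb*, the sister of *Acaca* and the carboxylase of the mitochondrial surface known from muscle, read 327 and 368, or 159 per kb, in a peak that contained its start. *Cpt1b*, the muscle form of CPT1, stood at 184 per kb and *Cpt1a*, the liver form, at 154 per kb. The total signal was highest at *Fabp3* (2463 and 2556), whose peak of 11223 nt spans the whole gene, and per kb it ranked 8 of 36.

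Of the 36 peaks, 32 contained the start of their own gene, and those of *Hadhb*, *Acaa1a*, *Acaca* and *Lipe* did not. The start is here the outer end of the annotated gene span, and other starts of a gene were not examined. Whether a peak, such as that of *Cd36* or *Eci2*, contains the RefSeq start searched for motifs was not tested, because the builds differ. Reads in a peak were compared with the IgG library of the same genotype after both were divided by the uniquely mapped reads of their library. In all 6 RNA Pol II libraries, 35 of 36 peaks were above IgG, all but *Acaca*. The median ratio was 17.1 for WT, 9.66 for *Trdn-as* KO (13.0 for replicate 1 and 6.29 for replicate 2 alone) and 14.5 for *Mettl3* KO hearts.

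**Figure D1:**
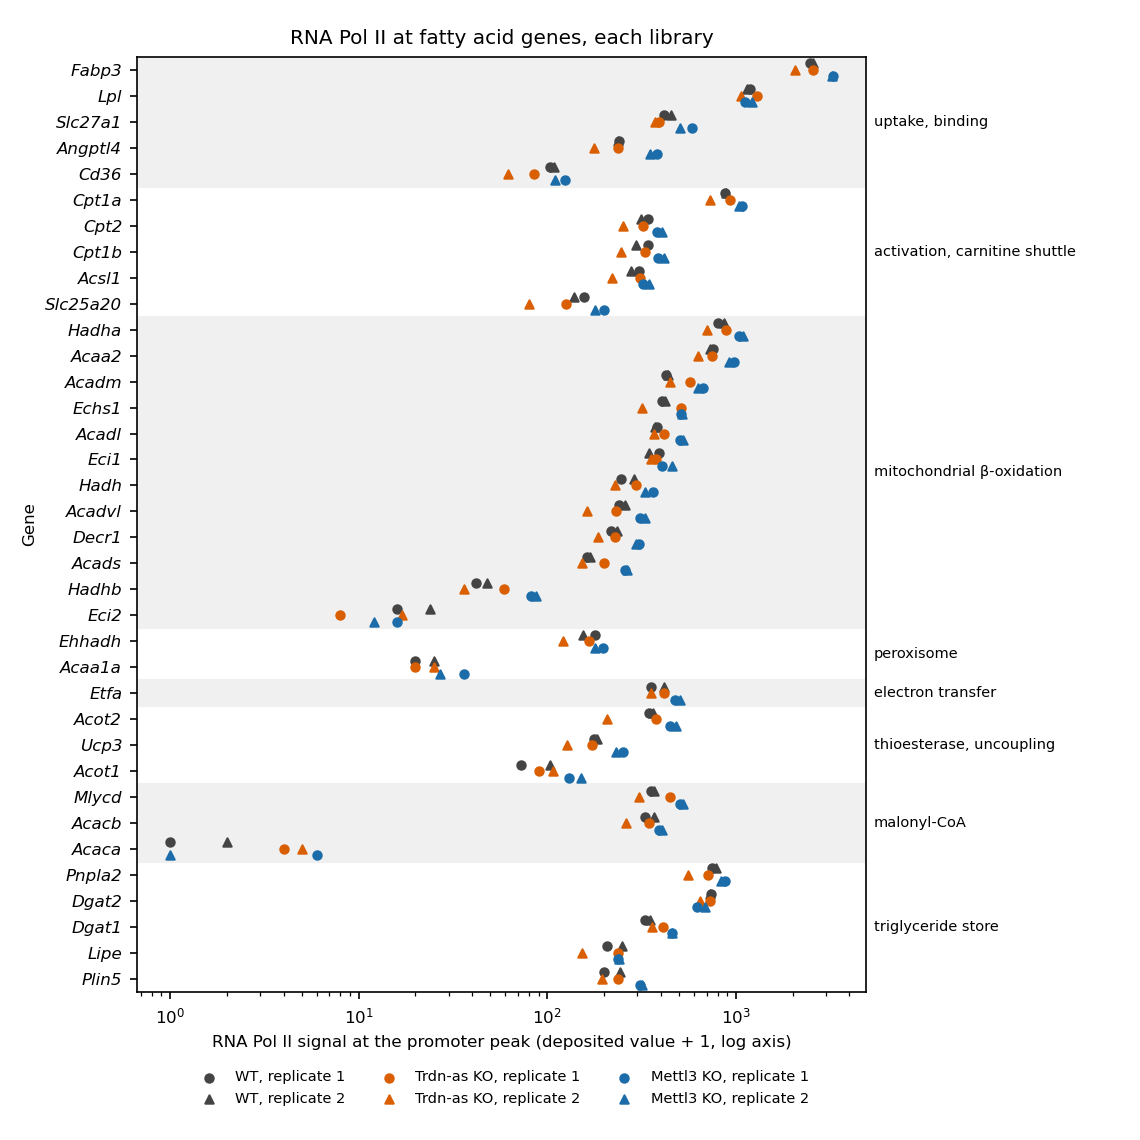
RNA Pol II value (deposited signal plus 1, log axis) at the promoter peak of each of 36 genes, grouped by role, with 1 point for each of 6 libraries. The blue *Mettl3* KO points lie to the right of both grey WT points at most genes, and the orange triangle of *Trdn-as* KO replicate 2 lies to the left of *Trdn-as* KO replicate 1 at most genes.

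The RNA Pol II libraries held from 1987585 to 4953463 reads in peaks, estimated from the spacing of the values. In 5 of them 35.5% to 42.6% of the uniquely mapped reads lay in peaks, against 18.6% in *Trdn-as* KO replicate 2, so the median differences and the calls past the threshold are given for that genotype with and without it. The 6 peaks of the Y chromosome summed to 0 in all *Trdn-as* KO libraries, and to between 223 and 326 in the RNA Pol II libraries of the other genotypes, so sex and this genotype cannot be told apart. The promoter of *Trdn-as*, the gene targeted in that line, read 530 and 595 (WT), 140 and 100 (*Trdn-as* KO) and then 503 and 491 (*Mettl3* KO). The promoter of *Mettl3* lies in the deposited table but is not known to be removed in *Mettl3* KO, and its 240 and 235 there against 177 and 202 in WT check nothing.

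Most of these promoters had a positive log2 fold change of RNA Pol II in *Mettl3* KO against WT, and the median was larger than that of all coding promoters. Differences are log2 fold changes of the value plus 1 from limma, which understate the change at low values, and *p*-values are adjusted over the 52655 peaks that reached 10 in 2 or more of the 6 libraries. Of the 36 genes, 35 passed this filter and *Acaca* did not. The log2 fold change was positive for 32 of 35 with a median of 0.36 (1.28-fold), from -0.50 at *Eci2* to 0.91 at *Hadhb*. Over 12097 coding promoters the median was 0.27 and 83.6% were positive, and over all peaks the median was 0.08. Of the 35, 23 lay above the coding median. In 30 genes both *Mettl3* KO libraries were above both WT libraries (31.2% of all peaks tested were), and in 1 they were below (19.5% of all peaks). Only 1 gene passed the threshold of an adjusted *p* under 0.05, *Acadm*, against 1.19% of all peaks, in either direction, and 18 genes had an unadjusted *p* under 0.05 (15.5% of all peaks). The *Trdn-as* KO libraries share the estimate of the spread, and the count changed with the libraries fitted. With only WT and *Mettl3* KO libraries 19 genes passed, all higher (54.3%, against 9.23% of all peaks), and in the fit of all 3 genotypes 0 passed when any 1 WT or *Mettl3* KO library was left out. Scaled by uniquely mapped reads instead, the median was 0.22 beside 0.13 for coding promoters, and 0 passed. With equal library totals the median was 0.20 beside 0.11, with 5 genes called higher and 1 lower, and with quantile normalization 0.12 beside 0.06, with 2 called higher and 1 lower. The count at an adjusted *p* under 0.1 was 4.

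*Acadm*, the dehydrogenase of medium chains (chromosome 3 from 153648900 to 153650918 in GRCm39), read 425 and 435 (WT), 568 and 446 (*Trdn-as* KO) and then 668 and 629 (*Mettl3* KO). All *Mettl3* KO values were above all others. The log2 fold change against WT was 0.59 ± 0.16 (SE; limma, adjusted *p* = 0.039), which is 0.32 above the coding median. *Acads*, the dehydrogenase of short chains, read 161 and 168 (WT), 198 and 151 (*Trdn-as* KO) and then 257 and 264 (*Mettl3* KO), a log2 fold change of 0.66 (limma, adjusted *p* = 0.091). *Hadhb* had the highest value, 0.91, on values of 41 and 47 (WT) against 81 and 86 (*Mettl3* KO), with an adjusted *p* of 0.129 from limma. Among the 12 genes of mitochondrial β-oxidation, 11 were positive without overlap of the libraries, with a median of 0.37, and 1 (*Acadm*) passed. Of all peaks 31.2% were higher without overlap and 1.19% passed, and 83.6% of coding promoters were positive. The remaining one, *Eci2*, read 15 and 23 (WT) against 15 and 11 (*Mettl3* KO). The peak that holds the starts of *Hadha* and *Hadhb* read 806 and 864 (WT) against 1041 and 1093 (*Mettl3* KO).

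Of the 5 uptake genes 4 were higher without overlap of the libraries and none lower, beside 31.2% and 19.5% of all peaks, with a median of 0.33 beside 0.27 for coding promoters and none past the threshold. *Angptl4*, which encodes an inhibitor of lipoprotein lipase and is a known PPAR target, read 238 and 236 (WT), 235 and 177 (*Trdn-as* KO) and then 381 and 349 (*Mettl3* KO). Its log2 fold change in *Mettl3* KO was 0.62 (limma, adjusted *p* = 0.085). *Fabp3* read 2463 and 2556 (WT), 2550 and 2062 (*Trdn-as* KO) and then 3281 and 3230 (*Mettl3* KO), a log2 fold change of 0.38 (limma, adjusted *p* = 0.054). *Lpl* itself read 1194 and 1150 (WT) against 1118 and 1215 (*Mettl3* KO), and the groups overlapped. *Cd36* read 102 and 107 (WT) against 123 and 109 (*Mettl3* KO). *Slc27a1*, which encodes FATP1, read 414 and 451 (WT) against 585 and 504 (*Mettl3* KO), a log2 fold change of 0.33 (limma, adjusted *p* = 0.312). All 5 genes of activation and the carnitine shuttle were positive without overlap, from 0.20 to 0.36, with none past the threshold, beside 31.2% of all peaks higher without overlap. The sign of 2 of them did not hold over the alternatives, *Acsl1* (-0.07 to 0.27) and *Cpt2* (-0.00022 to 0.32).

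The thioesterases *Acot1*, of the cytosol, and *Acot2*, of mitochondria, release fatty acids from their CoA esters. *Acot1* read 72 and 103 (WT), 89 and 106 (*Trdn-as* KO) and then 129 and 150 (*Mettl3* KO), with a log2 fold change of 0.69 ± 0.25 (SE; limma, adjusted *p* = 0.162). *Acot2* read 347 and 364 (WT), 375 and 206 (*Trdn-as* KO) and then 447 and 479 (*Mettl3* KO). Reads that map to more than 1 place were removed by the authors, which can lower the values of both. The ratio of *Acot1* to *Acot2* in the libraries of WT hearts was 0.21 and 0.28, that of *Mettl3* KO hearts 0.29 and 0.31, and that of *Trdn-as* KO hearts 0.24 and 0.51. *Ucp3*, an inner-membrane protein of muscle mitochondria, read 176 and 182 (WT) against 251 and 230 (*Mettl3* KO), with an adjusted *p* of 0.316 from limma.

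The 5 genes of triglyceride storage and release had a median of 0.16, beside 0.27 for coding promoters. *Dgat2*, an acyltransferase that completes triglyceride, was the only gene whose *Mettl3* KO libraries were both below WT, at 620 and 687 against 741 and 728. *Dgat1*, the other such enzyme, read 327 and 351 (WT) against 459 in both *Mettl3* KO libraries. Neither passed (limma, adjusted *p* = 0.587 and 0.185), but with equal library totals and with quantile normalization *Dgat2* was called lower. *Mlycd*, which degrades malonyl-CoA, read 355 and 368 (WT) against 503 and 523 (*Mettl3* KO), with an adjusted *p* of 0.13 from limma, and *Acacb*, which makes it, 392 and 405 in *Mettl3* KO. The difference between the 2 genes of either pair was not tested.

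**Figure D2:**
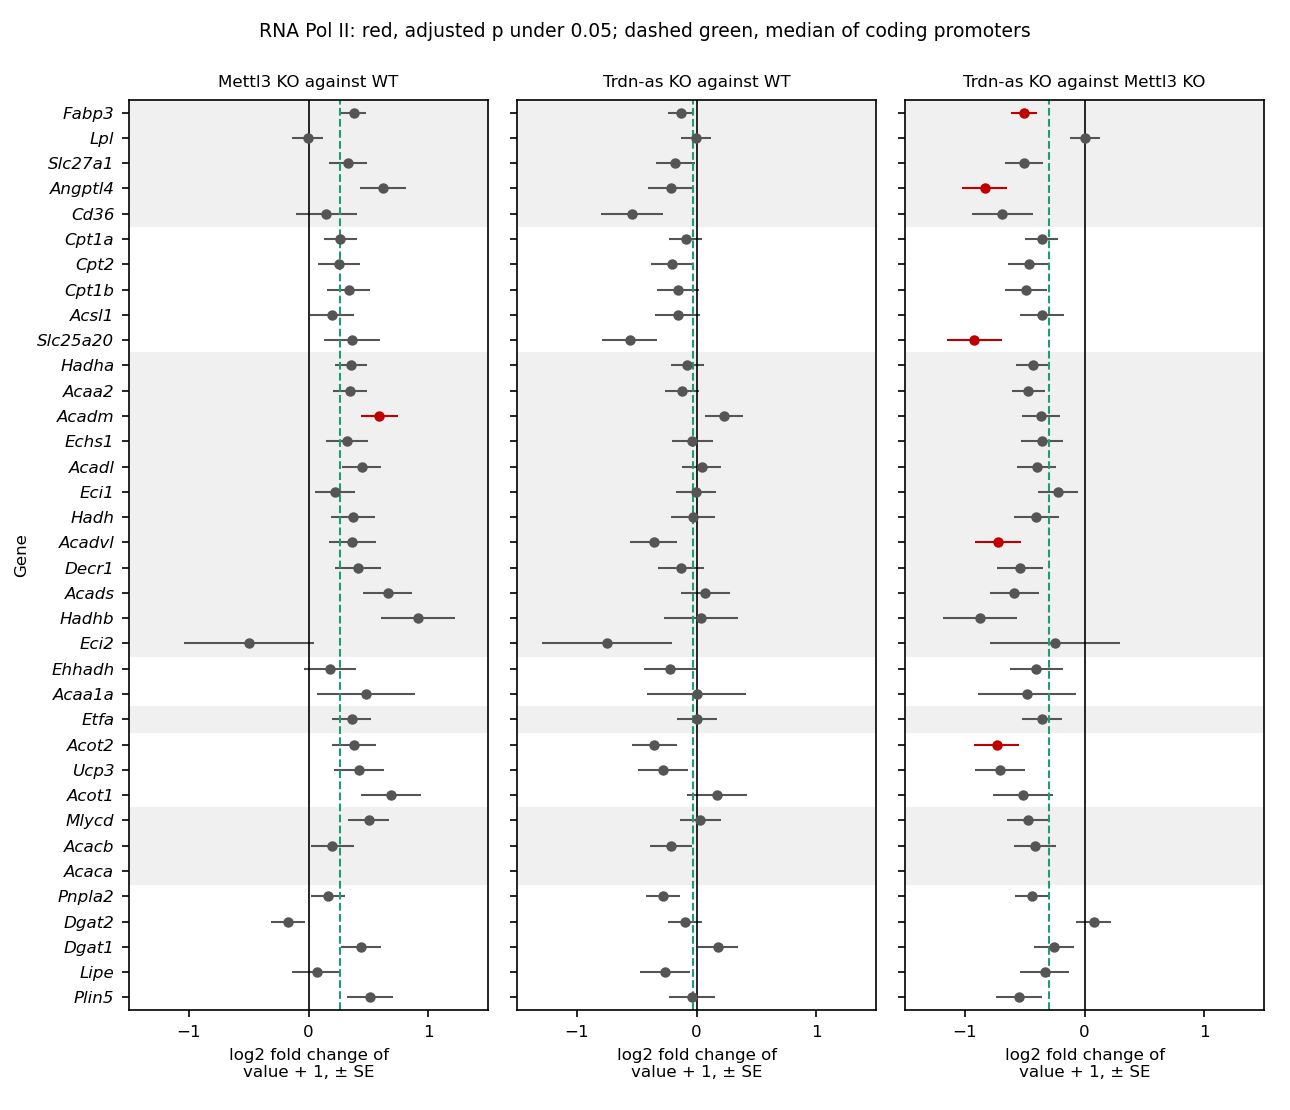
Log2 fold change of RNA Pol II (value plus 1, ± SE from limma) for 35 tested genes in 3 comparisons, with genes past an adjusted p of 0.05 in red, 0 as a solid line and the median of 12097 coding promoters as a dashed line. In *Mettl3* KO against WT the points gather around 0.36, to the right of the coding median of 0.27, and in *Trdn-as* KO against *Mettl3* KO the 5 red points lie at -0.51 or lower.

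In *Trdn-as* KO hearts no gene passed against WT. The median log2 fold change of the 35 genes was -0.12, with 8 above 0 and 1 (*Acaa1a*, 19 and 24 in both genotypes) at 0, beside -0.03 over coding promoters. With uniquely mapped reads as library size it was -0.72 beside -0.63. At an unadjusted *p* under 0.05 limma gave 2 genes, or 5.71% of 35, against 7.7% of all peaks, and 0.304% of all peaks passed the adjusted threshold. In 7 genes both libraries lay below both WT libraries, as in 19.1% of all peaks, and in 2 above, as in 12.9%. *Slc25a20*, the carnitine-acylcarnitine carrier, read 155 and 138 (WT), 124 and 79 (*Trdn-as* KO) and then 198 and 179 (*Mettl3* KO), so that no library of a genotype overlapped another genotype. Its log2 fold change against WT was -0.56 ± 0.23 (SE; limma, adjusted *p* = 0.522). *Cd36*, the fatty acid translocase, read 84 and 61 (-0.54; limma, adjusted *p* = 0.622). *Acadvl*, the dehydrogenase of very long chains, read 238 and 258 (WT) against 231 and 161 (*Trdn-as* KO), a log2 fold change of -0.36 (limma, adjusted *p* = 0.698). In each of these 3 genes replicate 2 was the lower library. Without *Trdn-as* KO replicate 2 the median of the 35 genes was 0.05 beside 0.14 for coding promoters, with 0 genes past the threshold, against 0.0798% of all peaks. Without *Trdn-as* KO replicate 1 it was -0.27 beside -0.19, and 7 genes passed, all lower: *Acadvl*, *Acot2*, *Cpt1a*, *Echs1*, *Fabp3*, *Pnpla2* and *Slc25a20*. In that fit 3.62% of all peaks passed. These fits leave 1 library of that genotype, which is assumed to vary like the others.

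When *Trdn-as* KO was set against *Mettl3* KO, 33 of 35 promoters had a log2 fold change below 0, with a median of -0.46 beside -0.30 for coding promoters. The median depended on the scaling of the libraries, with -0.25 beside -0.09 for equal totals, -0.21 beside -0.04 for quantile normalization and -0.92 beside -0.75 for uniquely mapped reads. This comparison shares its libraries with both others and its values follow from theirs. In 31 genes the libraries did not overlap, all lower in *Trdn-as* KO, against 29.9% of all peaks, and 13.9% of all peaks were higher. There were 5 genes past the threshold, all lower, against 1.5% of all peaks in either direction. With only the compared genotypes, without the variance trend, without a filter, with uniquely mapped reads as library size, and without any 1 WT or *Mettl3* KO library, 0 passed in limma, whereas 26 genes had an unadjusted *p* under 0.05 in the fit reported (17.9% of all peaks). They were *Fabp3* (-0.51; limma, adjusted *p* = 0.0042), *Angptl4* (-0.84, 0.011), *Slc25a20* (-0.92, 0.025), *Acot2* (-0.73, 0.027) and *Acadvl* (-0.72, 0.038). *Hadhb* had -0.87 without passing (limma, adjusted *p* = 0.126). *Lpl* and *Dgat2* were the 2 genes not below 0, and with equal totals and with quantile normalization both were called higher in *Trdn-as* KO. Without *Trdn-as* KO replicate 2 the median was -0.28 beside -0.13 for coding promoters, and *Fabp3* alone passed, against 0.245% of all peaks. Without replicate 1 the median was -0.62 beside -0.46, and 29 genes passed, against 18.1% of all peaks.

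A measure within each library takes the median over the 35 genes and subtracts that of the coding promoters of the same library, both relative to WT. The WT libraries gave -0.02 and 0.02, the *Trdn-as* KO libraries -0.09 and -0.08, and both *Mettl3* KO libraries 0.06. The *Trdn-as* KO libraries, which differed by 0.32 in the median of the 35 genes, thus differed by less than 0.01 in this measure. The WT values mirror each other by construction, since each is relative to the mean of both. The groups of 2 libraries did not overlap, but an exact permutation test of 2 against 2 cannot go below *p* = 0.33. Among coding promoters of the same mean level as the middle of the 35 genes (4220 promoters, values from 205 to 443), the medians against WT were 0.29 for *Mettl3* KO and -0.03 for *Trdn-as* KO, beside 0.36 and -0.13 for the 17 genes in that range. Without *Trdn-as* KO replicate 2 the medians for that genotype were 0.14 and, for the 17 genes, 0.08.

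**Figure D3:**
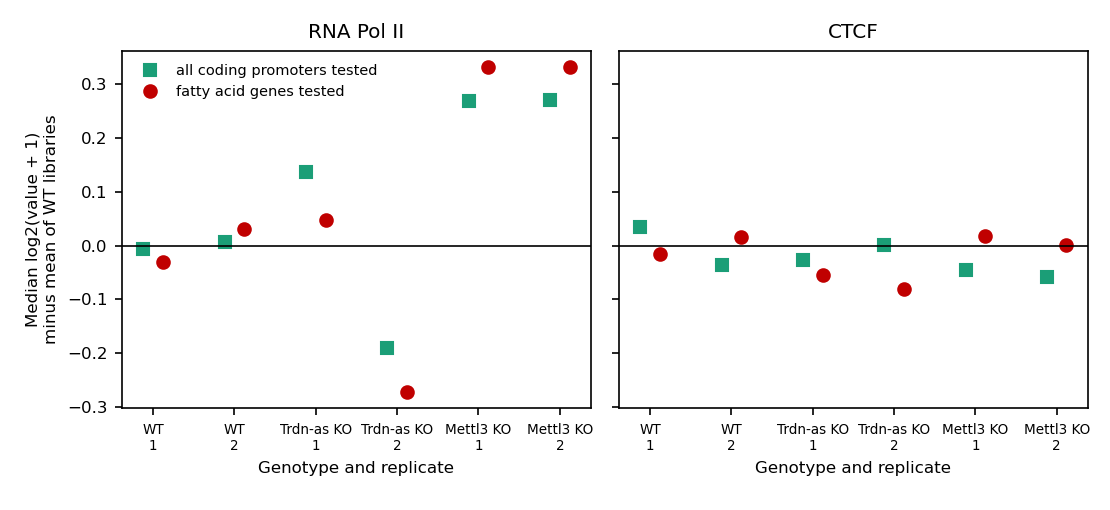
Median of log2(value + 1) minus the mean of the WT libraries, for the fatty acid genes tested (circles; 35 for RNA Pol II, 36 for CTCF) and all coding promoters tested (squares) in each library. For RNA Pol II the circles lie above the squares in both *Mettl3* KO libraries and below them in both *Trdn-as* KO libraries, including replicate 2, in which all medians are low.

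Other genes of fatty acid metabolism and markers of heart cell types were read from lists in the same way. Of 47 related genes, 41 had a promoter peak and 40 were tested for RNA Pol II. In *Mettl3* KO against WT the median was 0.20, below that of 0.27 for coding promoters, with 1 past the threshold, as were 1.19% of all peaks. *Pdk4*, the pyruvate dehydrogenase kinase that turns the heart from glucose to fatty acids, read 263 and 251 (WT) against 479 and 472 (*Mettl3* KO), a log2 fold change of 0.89 (limma, adjusted *p* = 0.0046). In this comparison 83.6% of coding promoters were positive. The 7 tested genes of the list of further oxidation enzymes were all positive (median 0.38), and 0 of them passed in limma. Of the 11 of further uptake and activation, 7 were positive (median 0.20), with the lowest value of -0.62 at *Gpihbp1*, which anchors lipoprotein lipase to capillaries (317 and 333 for WT, 223 and 200 for *Mettl3* KO), and none passed. In *Trdn-as* KO against WT the median of the 40 was 0.04, beside -0.03 for coding promoters, and 23 were positive, as were 43.0% of coding promoters. Without *Trdn-as* KO replicate 2 the median was 0.14 beside 0.14. With all libraries 1 of the 40 passed, against 0.304% of all peaks. It was *Agpat2*, an acyltransferase of phosphatidic acid synthesis, with 614 and 703 (WT) against 417 and 348 (*Trdn-as* KO), a log2 fold change of -0.78 (limma, adjusted *p* = 0.0034). Against *Mettl3* KO, *Agpat2* (-0.88) and *Pdk4* (-1.14) were lower in *Trdn-as* KO. Without *Trdn-as* KO replicate 2 the values of *Agpat2* were -0.65 against WT (limma, adjusted *p* = 0.106) and -0.75 against *Mettl3* KO (limma, adjusted *p* = 0.027), and *Pdk4* was -0.86 against *Mettl3* KO (limma, adjusted *p* = 0.0103). *Ppid*, the neighbour of *Etfdh*, read 206 and 227 (WT), 209 and 153 (*Trdn-as* KO) and then 280 and 277 (*Mettl3* KO), without passing.

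Markers of another cell type moved with *Mettl3* KO. All 6 fibroblast markers were higher than WT, with a median of 1.13, and 4 passed (*Col1a1*, *Col1a2*, *Col3a1* and *Pdgfra*). Their summed RNA Pol II value was 668 to 704 for WT, 668 to 1005 for *Trdn-as* KO and 1472 to 1485 for *Mettl3* KO libraries. The 7 cardiomyocyte markers with a peak (of 8 listed) summed to 28254 to 30105 for WT, 21831 to 28599 for *Trdn-as* KO and 28577 to 28942 for *Mettl3* KO, with a median log2 fold change of -0.01 in *Mettl3* KO against WT. Of these, *Myh6* was lower in *Trdn-as* KO than in WT (-0.35; limma, adjusted *p* = 0.029), but without *Trdn-as* KO replicate 2 it did not pass (-0.16; limma, adjusted *p* = 0.208). *Myh6*, the gene of αMHC, gave 10654 and 11527 of the WT sums and 11283 and 11566 of the *Mettl3* KO sums. The *Mettl3* KO mice carry the αMHC-MerCreMer transgene, and CTCF at the *Myh6* peak read 455 and 480 there against 299 and 289 in WT. The part of the transgene in these values was not tested. In *Mettl3* KO against WT the medians were -0.11 for 6 endothelial, -0.03 for 4 macrophage and 0.06 for 3 adipocyte markers. Of the 8 adipocyte markers 4 had a peak (*Lep*, *Retn*, *Car3* and *Cidec* had no row), and these summed to 101 to 131 over the 6 libraries. In whole ventricle a change in the share of a cell type and a change per cell cannot be told apart, and the part of fibroblasts in the values of the fatty acid genes was not tested.

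CTCF was lower at these promoters than at most coding promoters and no gene passed the test between genotypes. In WT it ran from 12.9 per kb at *Hadhb* to 81.7 per kb at *Acot2*, with a median of 37 per kb and a median percentile of 36.4. Of 36 genes 11 lay above the median coding promoter and 2 in the top 10%. On the deposited scale, where library scaling raises the IgG values, the WT mean of CTCF was above IgG at 16 of 36 genes, and at 58.4% of coding promoters. *Acot2* read 130 and 125 in WT, beside 79 for IgG. *Eci2* read 68 and 58, or 80.4 per kb, beside 23 for IgG. The peak taken for *Eci2* was thus high in CTCF and low in RNA Pol II, and other starts of this gene were not examined. *Acadvl* read 70 and 66, or 63.7 per kb, beside 69 for IgG.

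**Figure D4:**
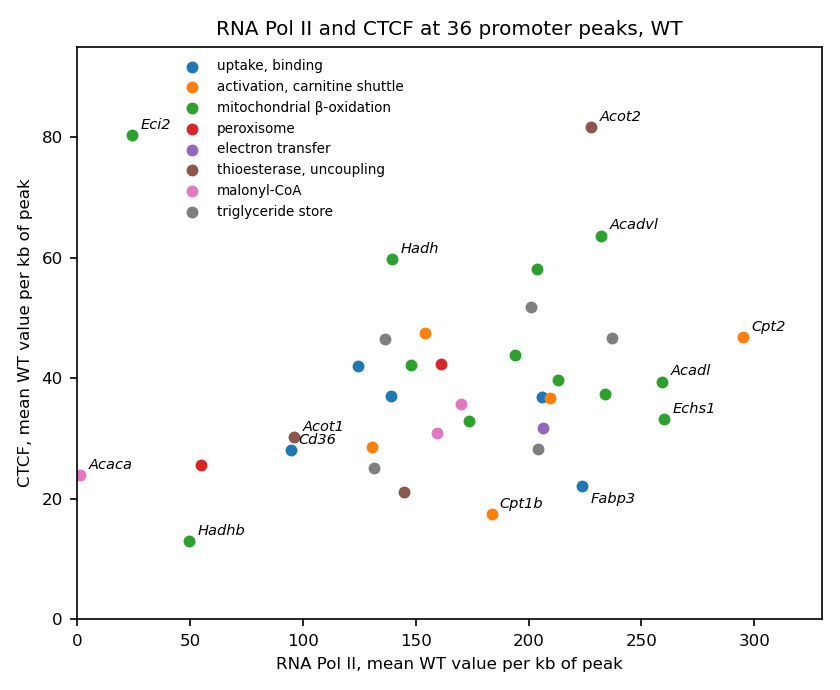
Mean WT value per kb of peak for RNA Pol II (x axis) and CTCF (y axis), 1 point per gene, coloured by role. *Acot2* and *Eci2* have about the same CTCF level (81.7 and 80.4), with RNA Pol II at 228 in the first and 24.2 in the second.

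All 36 genes passed the filter for CTCF, and limma called 0 in each of the 3 comparisons over 60649 peaks. At an unadjusted *p* under 0.05 there were 5 in *Trdn-as* KO against WT, 1 in *Mettl3* KO against WT and 3 in *Trdn-as* KO against *Mettl3* KO. Of all peaks 10.2%, 15.7% and 18.8% had such a *p*. The shares of all peaks past the adjusted threshold were 0.587%, 0.185% and 1.37%. The medians were -0.08, -0.01 and -0.04, beside -0.02, -0.06 and 0.04 for coding promoters. *Cd36* had the lowest value in *Mettl3* KO, with 36 and 26 (WT), 23 and 22 (*Trdn-as* KO) and then 21 and 16 (*Mettl3* KO) and a log2 fold change against WT of -0.71 ± 0.20 (SE; limma, adjusted *p* = 0.109). *Slc25a20* read 29 and 35 (WT) against 23 and 22 (*Trdn-as* KO), a log2 fold change of -0.48 (limma, adjusted *p* = 0.339). *Acacb* read 56 and 57 (*Trdn-as* KO) against 72 and 75 (*Mettl3* KO), with a log2 fold change between them of -0.37 (limma, adjusted *p* = 0.116). *Acaca* read 9 and 11 in WT, 16 in both *Trdn-as* KO libraries and 11 and 7 in *Mettl3* KO, and its difference between the knockouts was 0.79 (limma, adjusted *p* = 0.131). *Hadhb* differed by -0.49 there on values of 13 or less. *Hadha* read 155 and 161 (WT) against 149 and 130 (*Mettl3* KO), and *Slc27a1* 110 and 121 against 136 and 127.

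The same genes had 78 other promoter peaks, which by the choice of the highest peak hold less RNA Pol II. Of these, 48 peaks of 21 genes were tested for RNA Pol II, with medians against WT of 0.18 for *Mettl3* KO and -0.30 for *Trdn-as* KO (-0.16 without replicate 2). Of the 48, 1 passed in 1 comparison, where 1.5% of all peaks did. It was a second peak of *Mlycd*, lower with *Trdn-as* KO than with *Mettl3* KO (-1.36; limma, adjusted *p* = 0.016), and without *Trdn-as* KO replicate 2 it read -1.83 (limma, adjusted *p* = 0.044). For CTCF 28 were tested and 0 passed in limma in any comparison.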

How the data were processed

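RNA Pol II, CTCF and IgG ChIP-seq libraries from mouse ventricles were used, and the input libraries were not analysed here. According to the methods and the submitters' processing notes, the authors trimmed reads with Trimmomatic 0.39, aligned them to mm39 with STAR 2.7.11b, removed duplicates with Picard 3.1.1 and spliced and multi-mapping reads, counted reads in merged MACS peaks and divided the counts by DESeq2 1.36.0 size factors. What was deposited is a normalized signal in whole numbers, in 15 columns, so no count test was applied. Samples were grouped by their titles. The members and lists were chosen with earlier results of these data known. Of the related genes, 1 is not reported here and was left out of its list.

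Genes are named where they passed the threshold, had the 3 highest or 3 lowest RNA Pol II or the 3 highest CTCF levels per kb in WT, or had the 3 largest changes without overlap in a comparison. *Acot1* and *Acot2* are always named, and others illustrate a role and were chosen after their values were seen. log2(value + 1) was tested with limma 3.58.1 in R 4.3.3 in a model of 3 genotypes per target, with a variance trend, a minimum of 10 in 2 of 6 libraries and Benjamini-Hochberg adjustment at 0.05. The code of the test was also run on simulated data with 4-fold changes, from which no result is drawn here. The value of 1 read was estimated from the spacing of the values. Peaks were located in GRCm39 and promoter sequences in GRCm38.p6 (RefSeq). Alternatives were other library scalings, filters, pseudocounts, thresholds, a fit without the variance trend, only the compared genotypes, a replicate block, the sum of all promoter peaks and leaving out each library, and quantile normalization was added after the data had been seen. An IgG or RNA Pol II value of 0 allows up to 3 reads, for counting error only.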

Additional observations from a re-analysis of the deposited data

How the results depend on the processing

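The median RNA Pol II log2 fold change of the 35 genes kept its direction in *Mettl3* KO against WT (0.12 to 0.40) and in *Trdn-as* KO against *Mettl3* KO (-0.92 to -0.21) over all alternatives run, whereas in *Trdn-as* KO against WT it ran from -0.72 (beside -0.63 for coding promoters) with uniquely mapped reads as library size to 0.05 (beside 0.14) without *Trdn-as* KO replicate 2. Of the 22 values of single genes that the naming rule chose for a comparison, 6 were called, and 52 of their 102 refits lost the call and 50 kept it. The uncalled ones gained a call in 14 refits. The sign of all 22 held in all 362 refits. Other values for RNA Pol II changed sign under at least 1 alternative, 24 of 35 in *Trdn-as* KO against WT, 9 in *Mettl3* KO against WT (among them *Lpl*, -0.17 to 0.05, and *Cd36*, -0.01 to 0.23) and 5 in *Trdn-as* KO against *Mettl3* KO (among them *Lpl*, -0.46 to 0.21, and *Dgat2*, -0.38 to 0.35). For *Acadm* in *Mettl3* KO the value ran from 0.35 to 0.63.

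Counts of genes past the threshold moved more. In *Mettl3* KO against WT, where 1 passed, 6 did with equal library totals, 4 with a filter of 20 in 4 libraries, 2 with a pseudocount of 5, 3 with quantile normalization, 19 with only the compared genotypes, and 0 without a filter, without the variance trend and with uniquely mapped reads. At adjusted *p* under 0.01 and 0.1 they were 0 and 4. In *Trdn-as* KO against *Mettl3* KO, where 5 passed, the counts in the same order were 10, 9, 7, 9 and 0, then 0 in each of the last 3 fits, and 1 and 10 at the other thresholds. *Dgat2* was lower in *Mettl3* KO than in WT among the 6 and the 3. Of the 10 with equal totals and of the 9 with quantile normalization, *Lpl* and *Dgat2* were higher in *Trdn-as* KO. Leaving out 1 library gave 0 to 7 calls in *Trdn-as* KO against WT (7 without *Trdn-as* KO replicate 1), 0 to 19 in *Mettl3* KO against WT and 0 to 29 in *Trdn-as* KO against *Mettl3* KO. Without any 1 WT or *Mettl3* KO library all 3 counts were 0. Without *Trdn-as* KO replicate 2 they were 0, 19 and 1. For CTCF 1 gene passed with the sum of all promoter peaks (*Cd36*, *Mettl3* KO against WT), and 1 with equal totals and with quantile normalization (*Acacb*, *Trdn-as* KO against *Mettl3* KO). The cause of these shifts was not tested.

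The differences between replicates correlated between genotypes from -0.24 to 0.01 over both targets, and the lowest value was that of CTCF in WT and *Trdn-as* KO. These correlations cannot say whether samples of the same number were prepared together. Links of the same number between RNA Pol II, CTCF and IgG libraries were not examined. With the number as a replicate block the RNA Pol II counts were 0, 1 and 5 and the CTCF counts 0, 0 and 0. Depth limits *Acaca*, *Eci2*, *Acaa1a* and *Hadhb* most, with RNA Pol II values under 90 in every library.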
